A study of Mus musculus with 7 samples.

Results

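Expression of 43 genes of sterol, fatty acid and phospholipid synthesis was compared between memory B cells (MBCs) and plasma cells (PCs) of the mouse spleen. The genes were chosen by name as enzymes of these pathways and as the proteins that regulate them, and all 43 were found among the 48795 genes of the deposited table. They comprised 5 regulators, 17 enzymes of sterol synthesis, 10 enzymes of fatty acid synthesis and 11 enzymes of membrane phospholipid synthesis. There were 3 MBC and 4 PC bulk RNA-seq libraries. All cells came from female wild-type C57BL/6 mice of 8 to 12 weeks, 10 days after an intravenous injection of sheep red blood cells, an antigen that elicits a T cell-dependent response. Before sorting, spleen cells went over CD43 MicroBeads to enrich B cells, and red cells were lysed. The MBC gate was B220+ CD138Neg IgDneg CD38+ CD273+, and the PC gate was B220lo CD138+ IgD-. A Nugen cDNA kit was used for library preparation, and sequencing was done with the Illumina HiSeq system. The labels do not say whether libraries came from separate animals or pools, so p-values measure only the spread between these samples, which may be technical.

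Sterols are built from acetyl-CoA through mevalonate and squalene. The transcription factors SREBP1 and SREBP2, encoded by Srebf1 and Srebf2, are made as precursors in the endoplasmic reticulum (ER) membrane. The escort protein SCAP carries them to the Golgi for cleavage when sterols are scarce, and INSIG1 and INSIG2 hold SCAP in the ER when sterols are plentiful. Fatty acids are also built from acetyl-CoA and are then elongated and desaturated, and phospholipids join them to a glycerol backbone and a head group. PCs are known for a greatly expanded ER, whose membrane consists mainly of phospholipids and some sterol.

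Values are given as scaled TPM, that is, TPM divided by 1 factor per library, because immunoglobulin transcripts took 49.4 to 55.9% of the deposited TPM in PCs and 1.65 to 3.16% in MBCs. A gene was tested if it reached 1 TPM in at least 3 libraries, and it was called if its adjusted p (limma, Benjamini-Hochberg) was under 0.05 and its log2 fold change was 1 or more in size. Fold changes are PC minus MBC on the scale log2(scaled TPM + 1), which understates the change of low genes. TPM holds no read totals, so the depth behind each value is unknown, and a gene absent from a library is described as listed at 0. In bulk RNA, fewer cells of a type and less RNA per cell cannot be told apart.

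The PC libraries carried their markers, and 7 of 7 PC markers were called higher in PCs. Of 9 MBC markers, 4 were called lower in PCs, among them Ms4a1 and Pax5. The library labelled MBC3 stood apart from MBC1 and MBC2. It correlated with the PC libraries at r = 0.70 to 0.777 and with the other MBC libraries at 0.681 and 0.687. Transcripts for its sort markers were low, with Cd38 at 6.77 scaled TPM against 130 and 186, and Pdcd1lg2, which encodes CD273, at 2.59 against 43.3 and 24.4. MBC3 had the highest level among the MBC libraries for 10 of 10 cell cycle genes, whose sum was 1015 scaled TPM in MBC3, 190 in MBC1, 217 in MBC2 and 517 to 739 in PCs. The 7 PC markers summed to 294 scaled TPM in MBC3, 189 and 149 in MBC1 and MBC2, and 9630 to 16559 in PCs, and the B cell gene Ms4a1 was at 208 in MBC3 and 42.1 to 66.0 in PCs. The low sort markers thus go against the label of MBC3, the PC markers do not make it a PC library, and whether it holds MBCs was not settled by these values. MBC3 and PC4 also shared a prefix in their titles that the other 5 libraries did not have. Full title codes were shared by MBC1 and PC1, by MBC2 and PC3, and by MBC3 and PC4, and the main test did not pair them. Results are therefore given with and without MBC3.

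Of the 43 genes, 39 were tested, and only 1 was called with all 7 libraries, the desaturase gene Scd1, which fell in PCs. Over all 11573 genes tested, 6.41% were called higher and 2.14% lower in PCs, so the members' count of 0 higher was below the background and that of 1 lower, 2.56% of 39, was near it. The calls over all genes depended on scaling, and 74.9% of them were higher in PCs, against 13.5% on the deposited TPM and 56.2% after quantile normalization. An unadjusted p under 0.05 was found in 7 of 39 members (limma), 1 of 5 regulators, 3 of 17 sterol, 2 of 9 fatty acid and 1 of 8 phospholipid genes, beside 2803 of all 11573. Log2 fold changes were positive for 15 of 17 sterol genes, 4 of 5 regulators, 6 of 8 tested phospholipid genes and 4 of 9 tested fatty acid genes, beside 6419 of all 11573. Their medians were 0.97, 1.31, 0.33 and -0.04, beside 0.14 for all genes tested. The deposited TPM without scaling moved the median of all genes to -0.91, and 13 of 17 sterol genes lay above the median of all genes on either scale, although only 8 of 17 were then positive. After quantile normalization 11 of 17 were positive. No difference between the groups of enzymes was tested. Members also varied more among MBC libraries than among PC libraries, with a median SD of log2 values of 1.23 and 0.54, beside 0.91 and 0.47 for all genes tested. In MBC libraries 11 of the 43 were listed at 0 in at least 1 library, and in PC libraries 1 was.

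**Figure D1:**
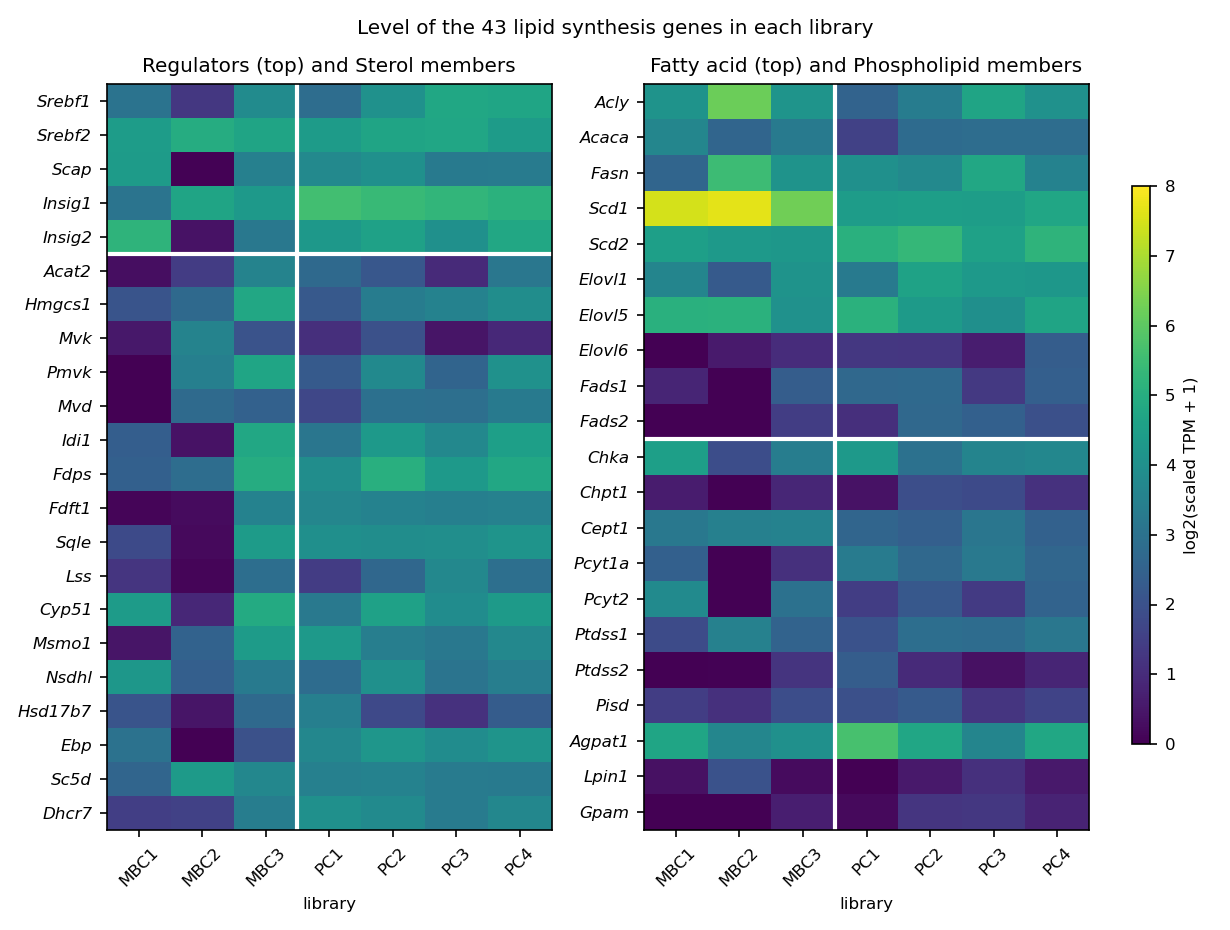
Level of each of the 43 genes in each of the 7 libraries, as log2(scaled TPM + 1) by colour, with regulators above sterol genes on the left and fatty acid genes above phospholipid genes on the right. A vertical white line separates the MBC from the PC libraries. Scd1 was the brightest row in the 3 MBC libraries, and many sterol genes were dark in MBC1 or MBC2 but not in MBC3.

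Without MBC3, 7 members were called. Scd1 was again lower in PCs, and 6 members were higher, the sterol genes Fdft1, Sqle, Idi1, Fdps and Dhcr7 and the desaturase gene Fads2. In that fit 13.8% of all genes tested were called higher and 7.94% lower. Thus 5 of 17 sterol genes, or 29.4%, were called higher, as were 1 of 9 fatty acid genes, no regulator and no phospholipid gene. Removing MBC3 and keeping only the 5 libraries that share the more frequent title prefix, which also removes PC4, left Fdft1, Sqle and Scd1 called. Of all 11573 genes tested, 873 were then called higher and 417 lower.

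**Figure D2:**
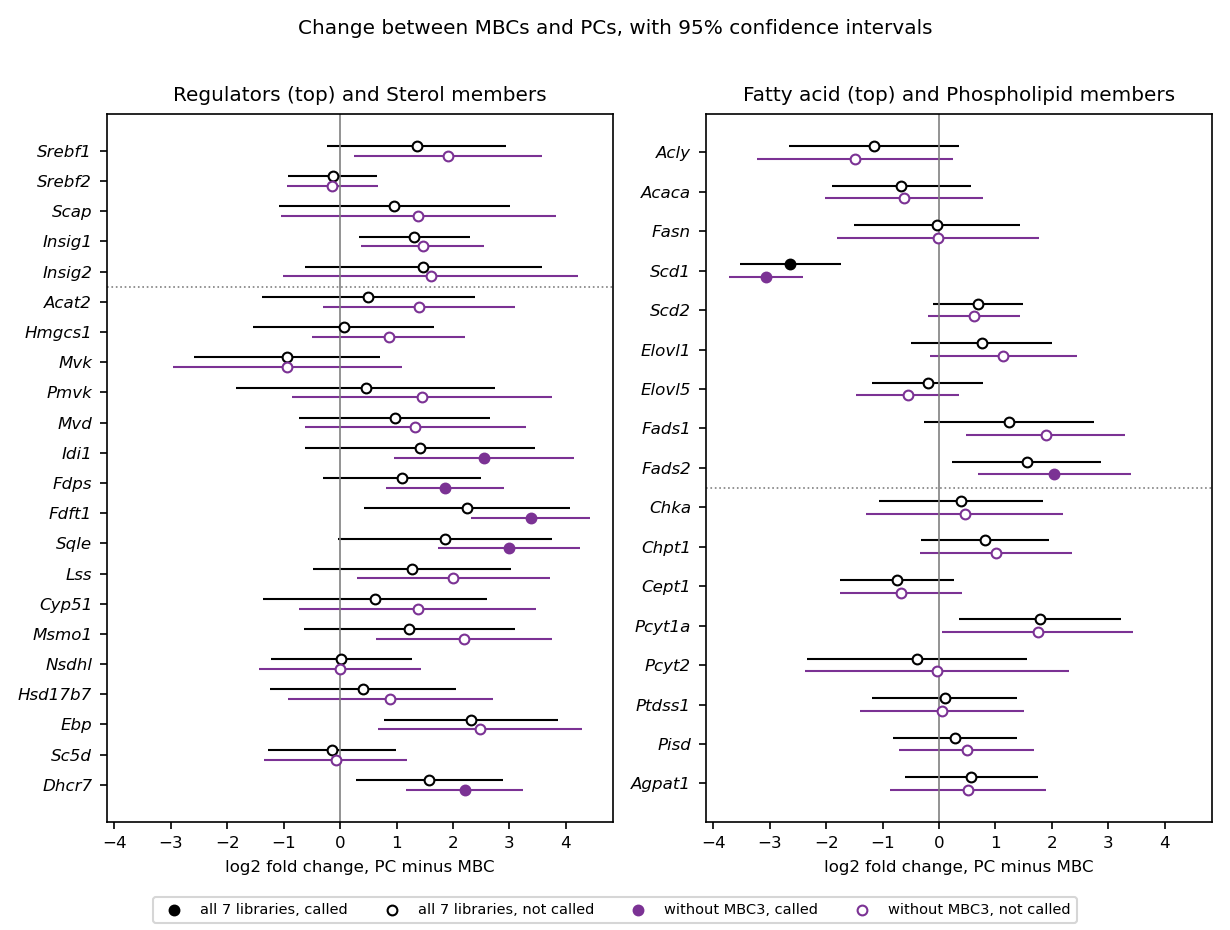
Log2 fold change of the 39 tested genes (PC minus MBC) on the horizontal axis, with 95% confidence intervals, in black for all 7 libraries and in purple without MBC3. Filled points are called genes. Scd1 is the only filled black point, at -2.63, and 7 purple points are filled, of which 5 are sterol genes.

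Among the regulators, Insig1, whose product retains SCAP in the ER and is itself induced by SREBPs, came closest to the threshold. Its level was 7.51, 24.5 and 18.9 scaled TPM in MBC1 to MBC3 and 47.3, 41.3, 37.2 and 33.5 in PC1 to PC4. The groups did not overlap, with every PC library above every MBC library, which was so for 13.0% of all genes tested. The log2 fold change was 1.31 ± 0.44 (SE), which did not pass the test (limma, adjusted p = 0.105), and on the deposited TPM the groups overlapped and the log2 fold change was 0.05. Srebf2, which mainly drives sterol genes, overlapped between the groups on this scale. It lay at 20.3, 29.9 and 24.4 scaled TPM in MBCs and 19.9, 24.5, 25.8 and 19.8 in PCs, and the 95% interval of its log2 fold change ran from -0.92 to 0.65. On the deposited TPM it was called lower in PCs, at 36.95, 44.43 and 50.04 TPM in MBCs and 12.65 to 20.96 in PCs (log2 fold change -1.40, limma adjusted p = 0.0186), where the median of all genes was at -0.91.

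Srebf1, which mainly drives fatty acid genes, spanned 1.48 to 13.4 scaled TPM in MBCs and 6.21 to 26.4 in PCs, and the groups overlapped (log2 fold change 1.36, limma adjusted p = 0.28). The escort Scap and the second retention gene Insig2 were close to 0 in MBC2 alone. Scap was at 19.9, 0.027 and 10.3 scaled TPM in MBCs, and its PC values ran from 8.76 to 15.1. Insig2 was at 36.2, 0.31 and 8.17 in MBCs, and its PC values ran from 15.01 to 26.6. For both, MBC1 was the highest library of all 7 and MBC2 the lowest. Neither passed the test, with limma adjusted p = 0.568 for Scap and 0.372 for Insig2.

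In the sterol pathway, no member was called with all 7 libraries, and 3 of 17 had an unadjusted p under 0.05 (Ebp, Fdft1 and Dhcr7). MBC3 was the highest MBC library for 12 of 17 sterol genes, or 70.6%, beside 35.1% of all genes tested. In 9 of 17 it was above all 4 PC libraries, beside 2741 of all 11573 genes tested. Summed over the 17 genes, the level was 71.5, 72.9 and 252 scaled TPM in MBC1 to MBC3 and 147, 209, 154 and 212 in PC1 to PC4. MBC1 and MBC2 were thus below every PC library, and MBC3 was above every PC library. The sum of cell cycle genes also had MBC3 highest and MBC1 and MBC2 lowest, but PC2 and PC3 changed order. The part of cell cycle genes in the result was not tested. With MBC3 left out, every PC library was above both MBC libraries in 8 of 17 sterol genes, or 47.1%, beside 25.6% of all genes tested.

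**Figure D3:**
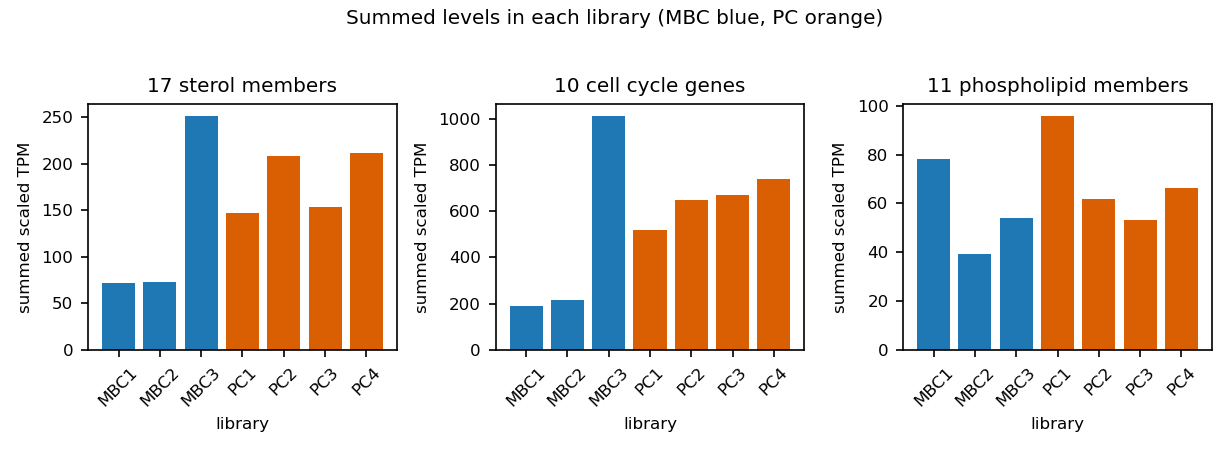
Summed scaled TPM of the 17 sterol genes, of 10 cell cycle genes and of the 11 phospholipid genes in each library, with MBC libraries in blue and PC libraries in orange. In the sterol and cell cycle panels MBC3 is the tallest bar, at 252 and 1015, and MBC1 and MBC2 are the lowest. The phospholipid sums overlap between the groups, at 39.2 to 78.2 in MBCs and 53.3 to 95.9 in PCs.

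The first steps of the pathway did not separate the groups. Acat2, the cytosolic thiolase, was at 0.22, 1.70 and 10.8 scaled TPM in MBCs and 0.923 to 7.92 in PCs. Hmgcs1, which makes HMG-CoA, was at 3.25, 5.61 and 26.9 in MBCs and 3.74 to 14.2 in PCs, with a log2 fold change of 0.06 that turned negative in several alternatives. In both genes MBC3 was above all PC libraries. The mevalonate kinase gene Mvk was highest in MBC2, at 10.9 scaled TPM, and lay between 0.369 and 2.97 in PCs. The next enzymes, phosphomevalonate kinase (Pmvk) and mevalonate diphosphate decarboxylase (Mvd), were listed at 0 in MBC1 and were at 9.94 and 5.78 in MBC2. Log2 fold changes of these 5 members lay between -0.94 and 0.97, and none passed the test.

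The isoprenoid and squalene steps held most of the genes called without MBC3. Fdft1 (squalene synthase, the committed step to sterols, chromosome 14, 63145150 to 63179578, minus strand) was at 0.0713, 0.168 and 10.7 scaled TPM in MBC1 to MBC3 and 11.7, 10.6, 9.94 and 10.3 in PC1 to PC4. MBC3 thus lay within the narrow PC range, and MBC1 and MBC2 were near 0. With all libraries the log2 fold change was 2.25 ± 0.82 (SE) and did not pass (limma, adjusted p = 0.129), and without MBC3 it was 3.38 ± 0.46 (adjusted p = 0.0027). Its annotated exons overlap those of the cathepsin gene Ctsb on the opposite strand, and 30.7% of the 50-base stretches of its longest transcript also occur in other genes, with the largest share in Ctsb. Ctsb itself was at 29.1, 12.6 and 8.45 scaled TPM in MBC1 to MBC3 and 38.9 to 63.9 in PCs. Every PC library was thus above every MBC library for Ctsb. Among MBC libraries alone, MBC3 had the lowest Ctsb level and the highest Fdft1 level. The part of Ctsb in the Fdft1 values was not tested.

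Sqle (squalene epoxidase, a slow step of the pathway) was also below all PC libraries in MBC1 and MBC2. The longest transcript of Sqle shared no 50-base stretch with other genes. Its levels were 2.45, 0.162 and 20.1 scaled TPM in MBCs and 14.8, 14.2, 14.4 and 16.5 in PCs, so that MBC3 was the highest of all 7 libraries. The log2 fold change was 1.86 ± 0.85 (SE; limma, adjusted p = 0.214) with all libraries and 2.996 ± 0.54 (adjusted p = 0.0086) without MBC3. Idi1, the isomerase that supplies dimethylallyl diphosphate, was at 4.24, 0.31 and 26.7 scaled TPM in MBCs and 7.83, 19.2, 12.4 and 22.1 in PCs. MBC3 was again the highest library. Without MBC3 it changed by 2.55 on the log2 scale (limma, adjusted p = 0.0351), and 30.5% of its 50-base stretches also occur in other genes, with the largest share in the processed pseudogene Gm13502.

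Fdps, which makes farnesyl diphosphate, was at 4.53, 6.25 and 29.8 scaled TPM in MBCs and 14.1, 32.0, 18.8 and 27.0 in PCs. MBC1 and MBC2 were below all PC libraries and MBC3 was within their range. With all libraries the change was 1.09 on the log2 scale (limma, adjusted p = 0.319), and it was 1.86 without MBC3 (adjusted p = 0.0246). Of its 50-base stretches 86.4% are shared with other genes, with the largest share in the overlapping gene model Gm43738, which was listed at 0 in all 7 libraries, so the value depends on how reads were divided between them.

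After cyclization, Ebp, the sterol isomerase (chromosome X, 8185329 to 8193512, minus strand), was the only sterol gene whose groups did not overlap with all libraries. It was at 7.03, 0 and 2.997 scaled TPM in MBCs and 12.0, 17.3, 13.9 and 16.6 in PCs. The log2 fold change was 2.31 ± 0.69 (SE) and did not pass (limma, adjusted p = 0.0731), and on the deposited TPM the groups overlapped with a log2 fold change of 1.31. Without MBC1 it was 2.98 (limma, adjusted p = 0.0261), without MBC2, where Ebp was listed at 0, it was 1.48 (0.101), and without MBC3 it was 2.48 (0.0578).

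Dhcr7, which encodes the reductase of the last step to cholesterol, was at 1.79, 1.90 and 9.45 scaled TPM in MBCs and 15.2, 13.2, 9.005 and 12.0 in PCs. MBC3 exceeded only PC3. The log2 fold change was 1.58 ± 0.58 (SE; limma, adjusted p = 0.134) with all libraries and 2.21 ± 0.45 (adjusted p = 0.0131) without MBC3. The demethylase partner Msmo1 and the cyclase Lss were also below all PC libraries in MBC1 and MBC2, but without MBC3 they did not pass the test (limma, adjusted p = 0.0524 and 0.0912). Cyp51, the lanosterol demethylase, was at 19.8, 0.863 and 28.8 scaled TPM in MBCs and 8.34 to 23.1 in PCs, and the groups overlapped. Nsdhl and Hsd17b7, which remove and reduce ring substituents, and the desaturase Sc5d had log2 fold changes between -0.15 and 0.40, with none past the test.

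Promoters were compared because most sterol genes are textbook targets of SREBPs, which act beside the factor NF-Y at CCAAT boxes. RefSeq windows of 250 bases before to 50 after the start site (GRCm38.p6) were at hand for 35 of the 43 genes. Not among them were Fdft1, Fdps, Sqle, Scd1, Scd2, Fads1, Pcyt2 and Ptdss1. The letters TCACNCCAC, 1 form of the sterol regulatory element, were found on either strand in 2 of the 35 genes, Hmgcs1 and Pcyt1a, beside 1.33% of the tested genes with a window. CCAAT was found on either strand in 13 of 14 sterol genes, 4 of 5 regulators, 4 of 7 fatty acid genes and 6 of 9 phospholipid genes, beside 43.8% of tested genes. GGGCGG, the GC box, was in 13 of 14 sterol genes, 5 of 5 regulators, 3 of 7 fatty acid genes and 8 of 9 phospholipid genes, beside 69.6%. CACGTG, an E box, was in 3 of 14 sterol genes, 2 of 5 regulators, 1 of 7 fatty acid genes and 0 of 9 phospholipid genes, beside 12.2%. These 4 patterns were searched only in these windows, and a match is a run of letters and not a measured site.

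The 250 bases upstream of the start site are shown for 4 genes, 5′ to 3′ on the gene's strand, with TCACNCCAC and CCAAT on either strand in capitals. Hmgcs1 (chr13:119690101-119690350, plus strand) and Pcyt1a (chr16:32430671-32430920, plus strand) are shown for the sterol regulatory element, 137 and 116 bases upstream. Idi1 (chr13:8885356-8885605, plus strand) is shown as a gene called without MBC3, and Ebp (chrX:8193513-8193762, minus strand) as the sterol gene with groups apart.
Hmgcs1: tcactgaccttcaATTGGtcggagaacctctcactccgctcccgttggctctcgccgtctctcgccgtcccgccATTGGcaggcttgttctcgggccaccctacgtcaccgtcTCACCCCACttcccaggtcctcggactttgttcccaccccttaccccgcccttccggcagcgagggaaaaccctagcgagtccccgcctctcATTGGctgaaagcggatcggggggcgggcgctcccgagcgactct
Idi1: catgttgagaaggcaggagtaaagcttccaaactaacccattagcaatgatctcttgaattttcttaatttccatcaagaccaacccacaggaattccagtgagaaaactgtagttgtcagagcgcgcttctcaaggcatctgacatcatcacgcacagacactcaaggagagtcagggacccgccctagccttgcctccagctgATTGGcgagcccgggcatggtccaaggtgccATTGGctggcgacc
Ebp: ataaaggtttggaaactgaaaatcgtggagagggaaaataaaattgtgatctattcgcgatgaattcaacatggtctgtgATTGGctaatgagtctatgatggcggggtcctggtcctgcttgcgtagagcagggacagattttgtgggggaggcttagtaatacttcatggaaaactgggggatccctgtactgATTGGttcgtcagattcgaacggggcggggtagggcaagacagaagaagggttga
Pcyt1a: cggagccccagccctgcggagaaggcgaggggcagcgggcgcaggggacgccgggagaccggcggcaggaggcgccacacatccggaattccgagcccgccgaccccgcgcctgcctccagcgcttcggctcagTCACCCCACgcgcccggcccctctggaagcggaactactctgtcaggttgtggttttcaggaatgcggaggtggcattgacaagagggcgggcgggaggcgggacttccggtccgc

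The CCAAT boxes of Ebp, Idi1 and Hmgcs1 all lie on the opposite strand and read ATTGG here, and the Pcyt1a window holds none. Hmgcs1, with both kinds of motif, had a log2 fold change of 0.06 with all libraries and 0.86 without MBC3. Pcyt1a, with TCACNCCAC but no CCAAT, had 1.79 and 1.75. Neither gene was called in either fit, and a link between motifs and levels was not tested.

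In fatty acid synthesis, Scd1 was the 1 member called with all libraries (ENSMUSG00000037071, chromosome 19, 44394455 to 44407879, minus strand). It encodes a stearoyl-CoA desaturase, which makes oleate and palmitoleate from saturated fatty acids. Its level was 179, 201 and 76.7 scaled TPM in MBC1 to MBC3 and 20.2, 21.3, 20.8 and 25.3 in PC1 to PC4. Every MBC library was above every PC library, and such separation was seen in 8.68% of all genes tested. Means were 152 ± 66.5 (SD, n = 3) for MBCs and 21.9 ± 2.33 (SD, n = 4) for PCs. The log2 fold change was -2.63 ± 0.40 (SE), that is, 6.2-fold higher in MBCs (limma, adjusted p = 0.00293), with a 95% interval from -3.52 to -1.74. MBC3 was the MBC library nearest to the PCs, and without it the log2 fold change was -3.06 (adjusted p = 0.000535). Scd1 was called in all 17 alternative fits, with log2 fold changes from -3.93 to -2.37. Among the 11573 genes it had the 105th most negative log2 fold change.

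Markers of other cells were measured in the same libraries. The 8 T cell markers summed to 133, 114 and 46.8 scaled TPM in MBCs and 46.4 to 62.0 in PCs. Cd2 made up most of the sum in MBC1 and MBC2, at 118 and 114, so the high sums there rest on this gene. Cd3d, Cd3e, Cd3g, Cd4, Cd8a and Trac were listed at 0 in both. Cd3e and Trac were called higher in PCs. The 8 macrophage and monocyte markers summed to 35.0, 40.3 and 5.73 in MBCs and 23.4 to 33.8 in PCs. Of these, Csf1r was at 5.48, 3.97 and 0.0244 in MBCs and at most 1.60 in PCs. Without MBC3, Csf1r was called lower in PCs (log2 fold change -1.79, limma adjusted p = 0.0464). Cd68 went the other way and made up most of the sum in PCs. Its level was 12.3, 11.2 and 3.41 in MBCs and up to 25.2 in PCs. Every PC library was above every MBC library for Cd68, but it was not called (log2 fold change 1.33, limma adjusted p = 0.131). Lyz2 reached 21.001 in MBC2 and C1qb 14.9985 in MBC1, C1qa was listed at 0 in all MBC libraries and Fcgr1 in all 7 libraries. Erythroid markers summed to 2.60, 2897 and 15.7 in MBCs and 0.344 to 72.7 in PCs, so that MBC2 alone was high. The 4 platelet markers summed to at most 4.58 in any library. The part of other cells in the Scd1 result was not tested.

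Scd2, the neighbouring desaturase gene with the same reaction (chromosome 19, 44293674 to 44306864, plus strand), lay on the other side. It was at 22.05, 19.2 and 17.6 scaled TPM in MBCs and 33.1, 39.4, 22.8 and 35.7 in PCs. The groups did not overlap on this scale, with PCs higher, but the log2 fold change of 0.69 ± 0.36 (SE) did not pass (limma, adjusted p = 0.273) and turned to -0.59 on the deposited TPM. The ratio of Scd1 to Scd2 within a library does not depend on scaling. It was 8.12, 10.5 and 4.36 in MBCs and 0.61, 0.541, 0.912 and 0.71 in PCs, so that Scd1 was the more abundant of the pair in 3 of 3 MBC libraries and Scd2 in 4 of 4 PC libraries. The ratio differed by -3.40 on the log2 scale (p = 0.0286 in a two-sided, exact permutation test, the lowest value that 35 assignments can give). It was chosen after the values were seen. The transcripts share 4.01 to 4.66% of their 50-base stretches with other genes, with the largest share in another Scd gene.

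**Figure D4:**
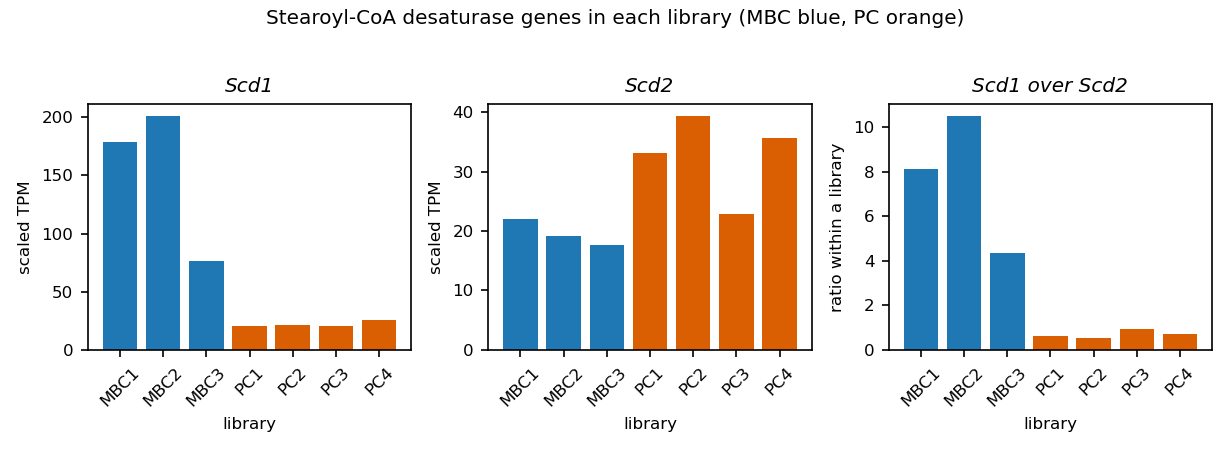
Scaled TPM of Scd1 and of Scd2, and the ratio of Scd1 to Scd2, in each library, with MBC libraries in blue and PC libraries in orange. Scd1 bars are taller in all MBC libraries (76.7 to 201 against 20.2 to 25.3), Scd2 bars are taller in all PC libraries, and the ratio is above 4 in MBCs and below 1 in PCs.

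Scd1 alone made up 64.2, 53.1 and 43.9% of the summed scaled TPM of the 10 fatty acid genes in MBC1 to MBC3, and 16.1, 14.8, 14.7 and 17.2% in PC1 to PC4. With Scd1 left out, the sum was 99.9, 178 and 98.0 in MBCs and 105, 123, 121 and 122 in PCs, and the groups overlapped. The enzymes upstream of the desaturases did not pass the test. Acly, which supplies cytosolic acetyl-CoA, was at 16.1, 71.9 and 16.8 scaled TPM in MBCs and 4.84, 9.35, 24.7 and 15.4 in PCs (log2 fold change -1.15, limma adjusted p = 0.329). Acaca, the carboxylase that makes malonyl-CoA, was at 11.8, 5.12 and 8.71 in MBCs and 1.92, 6.00, 6.32 and 6.204 in PCs, and 52.6% of its 50-base stretches also occur in other genes, with the largest share in the gene model Gm5182. Fasn, the fatty acid synthase, was at 5.11, 43.9 and 16.3 in MBCs and 15.2, 12.6, 26.7 and 10.8 in PCs. Its log2 fold change was -0.04, with a 95% interval from -1.51 to 1.44. In Acly and Fasn, MBC2 was the highest of all 7 libraries. On the deposited TPM, Acly (-2.39, limma adjusted p = 0.0252) and Acaca (-1.81, 0.048) were called lower in PCs.

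The elongase genes overlapped between the groups. Elovl1, which extends saturated very long chains, spanned 3.85 to 16.4 scaled TPM in MBCs and 8.71 to 23.5 in PCs. Elovl5, which acts on polyunsaturated chains, spanned 15.4 to 33.5 in MBCs and 14.96 to 33.5 in PCs, and it was called lower in PCs on the deposited TPM (-1.48, limma adjusted p = 0.0222). Elovl6 was at 1.04 or less in MBCs and 0.554 to 4.13 in PCs and was not tested. The desaturase genes of polyunsaturated synthesis were low in all libraries. Fads1 was at 0.757, 0 and 4.10 in MBCs and 5.57, 5.71, 1.49 and 4.35 in PCs. Fads2 was listed at 0 in MBC1 and MBC2, was at 1.76 in MBC3, and was at 1.13, 5.45, 4.45 and 2.87 in PCs. Fads2 did not pass with all libraries (log2 fold change 1.56, limma adjusted p = 0.144) and was called without MBC3 (adjusted p = 0.0421), when both MBC libraries left were listed at 0, so no fold is given.

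In phospholipid synthesis, none of the 8 tested members was called with or without MBC3. Pcyt1a, the CTP-dependent enzyme that sets the rate of phosphatidylcholine synthesis, had the largest positive change of the group. It was at 4.48, 0 and 1.17 scaled TPM in MBCs and 9.11, 5.53, 8.44 and 5.19 in PCs, and every PC library was above every MBC library. The log2 fold change was 1.79 ± 0.64 (SE; limma, adjusted p = 0.126), it was 0.90 on the deposited TPM, and it passed only without MBC1 (2.42, adjusted p = 0.0414). No enzyme of this route passed the test on scaled TPM with all libraries. Chka, the choline kinase of the first step, was at 21.9, 2.68 and 9.59 in MBCs and 19.0, 6.88, 11.3 and 12.0 in PCs. Cept1, the final transferase for choline and ethanolamine lipids, was at 8.16, 10.2 and 10.8 in MBCs and 5.14, 4.41, 7.85 and 4.56 in PCs. The groups of Cept1 did not overlap, with MBCs higher, but the change of -0.75 did not pass (limma, adjusted p = 0.352). On the deposited TPM Cept1 was called lower in PCs, at -1.91 (limma, adjusted p = 0.0186). Of its 50-base stretches 26.1% are shared with other genes, with the largest share in the overlapping gene Dennd2d. Chpt1, the choline-specific transferase, was at 0.824 or less in MBCs and 0.315 to 2.79 in PCs.

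On the ethanolamine and serine side, Pcyt2 was at 13.3, 0 and 6.94 scaled TPM in MBCs and 1.59 to 4.81 in PCs, a spread among MBC libraries wider than the range in PCs. Ptdss1, a phosphatidylserine synthase, was at 2.57, 10.4 and 4.79 in MBCs and 3.08 to 8.09 in PCs, with a log2 fold change of 0.10 (95% interval -1.18 to 1.38). Ptdss2 was at 1.32 or less in MBCs and was not tested. Pisd, the mitochondrial decarboxylase that makes phosphatidylethanolamine, was at 1.15 to 2.74 in MBCs and 1.38 to 3.85 in PCs. Of the 50-base stretches of Pisd, 35.3% are shared with other genes, with the largest share in the overlapping gene model Gm20671. Agpat1, which adds the second acyl chain to the glycerol backbone, was the most abundant gene of the group, at 25.1, 11.7 and 15.2 in MBCs and 50.4, 25.6, 11.3 and 26.4 in PCs. Its groups overlapped through PC3, the lowest of all 7 libraries, and the log2 fold change of 0.58 did not pass (limma, adjusted p = 0.547). Lpin1, the phosphatidate phosphatase, was at 0.296, 3.07 and 0.18 in MBCs and at most 1.17 in PCs. Gpam, which adds the first acyl chain, was at most 0.604 in MBCs and 1.45 in PCs, and neither was tested.

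In all, groups did not overlap in 6 of the 39 tested members. PCs were higher in Insig1, Ebp, Scd2 and Pcyt1a, which is 10.3% beside 13.0% of all genes tested. MBCs were higher in Scd1 and Cept1, 2 of 39, beside 8.68% of all genes tested. Without MBC3, PCs were higher in 13 of 39, or 33.3%, beside 25.6% of all genes tested, and lower in 2, beside 18.1%.

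The other lipid genes, in 8 lists, gave 4 calls among 86 tested genes, all higher in PCs. This is 4.65%, beside the 6.41% of all genes tested that were called higher. None of the 86 was called lower, beside 2.14% of all genes tested. The 4 called genes were Npc2 of sterol uptake and trafficking (1 of 10 tested), Apoe of sterol efflux (1 of 5), Hacd3 of fatty acid elongation (1 of 12) and Cers6 of sphingolipid synthesis (1 of 14). None of 6 other sterol synthesis genes, 13 of fatty acid oxidation, 18 of phospholipid remodelling or 8 of neutral lipid storage was called by limma, and 0, 3, 6 and 1 of them had an unadjusted p under 0.05. Npc2, which binds cholesterol in the lysosome, was at 7.08, 3.94 and 4.54 scaled TPM in MBCs and 39.4, 37.0, 24.3 and 34.9 in PCs (log2 fold change 2.51, limma adjusted p = 0.00412). Apoe, an apolipoprotein, was at 59.8, 107 and 66.3 in MBCs and 173, 287, 179 and 409 in PCs (1.69, adjusted p = 0.0289). Hacd3, a dehydratase of the elongation cycle, was at 1.22, 0.0741 and 5.00 in MBCs and 15.9, 15.9, 10.9 and 15.8 in PCs (2.67, adjusted p = 0.0286). Cers6, a ceramide synthase, was at 3.67, 0.0135 and 5.32 in MBCs and 83.5, 29.9, 33.6 and 19.8 in PCs (3.58, adjusted p = 0.0145). In these 4 genes every PC library was above every MBC library. Apoe was not called without MBC1, PC2 or PC4 (limma, adjusted p = 0.0832 to 0.0949), and Hacd3 was not called without MBC1 or any 1 of the PC libraries (0.0686 to 0.1). On the deposited TPM, Apoe was at 0.38 (limma, adjusted p = 0.488) and Hacd3 at 1.71 (0.118). Without MBC3, 11 of the 86 genes, or 12.8%, were called higher and 4, or 4.65%, lower, beside 13.8% and 7.94% of all genes tested in that fit.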

How the data were processed

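The authors deposited 1 table of TPM (reads of a gene over its length, as a share of the library, 2 decimals) for 48795 Ensembl genes and 7 libraries, in which every library sums to about the same total. The submitters' processing notes name STAR 2.5.2a, RSEM 1.3.0, DESeq2 1.18.1 and the genome build GRCm38, with no role given, and whether strand was used in counting is not given in the sources used here. Symbols and coordinates came from GENCODE M21 (GRCm38), which matched 48435 gene IDs. All columns were mapped to samples through the sample descriptions.

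For each library a factor (0.636 to 2.05) was taken as the median, over 9305 genes present in every library, of TPM relative to the gene's geometric mean, TPM was divided by it, and log2(scaled TPM + 1) was fitted with limma 3.58.1 in R 4.3.3 (lmFit and eBayes with trend) over 11573 genes, with no covariate. The study's methods at hand state no test for these libraries. Left-out libraries did not change the scaling factors. The limma step was tested on simulated data that gave both groups the same spread, so unequal spread was not checked. The exact permutation test and all sums used Python 3.11.15, pandas 2.3.3 and numpy 2.4.6. Shared sequence was counted as 50-base stretches of the longest coding transcript found in transcripts of other genes, on either strand. It exceeded 10% in 10 members, among them Hmgcs1 (13.6%), Scap (13.1%) and Pcyt1a (10.9%). Promoter windows were those of RefSeq.

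All members were named, and of 8 lists of other lipid genes up to 3 called genes each. Individual values of some genes in the lists are not reported here. The members and lists were chosen with earlier results of these data known. No libraries were copies, since at least 99.3% of genes differed in any pair.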

Additional observations from a re-analysis of the deposited data

Results flagged for a closer look

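In 2 of 47 results examined, 43 genes and 4 sums, 1 PC library stood apart from the other 3, where about 2.35 would by chance. Acaca was at 1.92 scaled TPM in PC1, and PC2 to PC4 ran from 6.00 to 6.32. Ptdss2 was at 4.15 in PC1 and between 0.283 and 0.936 in the others. Acaca shares 52.6% of its 50-base stretches with other genes, and Ptdss2 was below the filter for testing.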

How the results depend on the processing

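Scd1 kept its direction and its call in all 17 alternative fits, with an adjusted p of at most 0.0229 (limma), and Npc2 was called in 16 of them, Cers6 in 15, Apoe in 8 and Hacd3 in 7. On the deposited TPM, 1 regulator (Srebf2), 4 fatty acid genes (Acly, Acaca, Elovl5 and Scd1) and 1 phospholipid gene (Cept1) were called lower in PCs, and the median of all genes moved with them. With the more frequent title prefix only, 2 sterol genes were called higher, beside 873 of all 11573 genes tested. Leaving out 1 library at a time gave 0 to 5 sterol genes, 0 to 1 fatty acid genes and 0 to 1 phospholipid genes called higher. Among all genes tested, those runs gave 451 to 1592 called higher and 91 to 919 called lower. Other counts over all genes that moved were 472 higher and 3018 lower on the deposited TPM, 437 and 123 with all genes above 0, 490 lower after quantile normalization and 417 lower with the prefix only. The cause of these changes was not tested.

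Whether samples were paired cannot be told from the labels or from correlations of single libraries. Same-numbered libraries deviated together with r = 0.109, -0.04 and -0.083, and libraries that share a title code with r = 0.109, -0.004 and 0.222. The last value, for MBC3 and PC4, was the highest between any MBC and any PC library. With a replicate block by number, 390 genes were called higher and 60 lower, and with the block by title code 434 and 83. Among the members the paired fits called Scd1 alone, at -2.70 and -2.62. The unmatched library, PC4 by number and PC2 by title code, carries no weight in these fits. The block by number ended the calls of Npc2 (2.49, limma adjusted p = 0.0609), Apoe (1.45, 0.121) and Hacd3 (2.63, 0.14).

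Directions of uncalled members turned as follows. On the deposited TPM the log2 fold changes were -0.10 for Scap, -0.40 for Acat2, -1.10 for Hmgcs1, -0.48 for Pmvk, -0.13 for Fdps, -0.55 for Cyp51, -1.17 for Nsdhl, -0.57 for Hsd17b7, -0.59 for Scd2, -0.46 for Elovl1, -0.81 for Chka, -1.002 for Ptdss1, -0.64 for Pisd and -0.69 for Agpat1. After quantile normalization they were -0.16 for Acat2, -0.24 for Hmgcs1, -0.18 for Nsdhl, -0.26 for Hsd17b7, -0.10 for Ptdss1 and -0.35 for Pisd. With the replicate block they were -0.16 for Hmgcs1, -0.0079 for Nsdhl, 0.12 for Fasn and -0.049 for Ptdss1, and by title code -0.21 for Nsdhl and 0.053 for Fasn. With the prefix only, Nsdhl was at -0.027, Fasn at 0.14 and Ptdss1 at -0.10. Fasn was at 0.0014 after removal of immunoglobulin, mitochondrial and rRNA genes, Chka at -0.11 with array weights and Pcyt2 at 0.37 with a pseudocount of 0.1. Leaving out single libraries gave ranges of -0.26 to 0.0063 for Srebf2, -0.34 to 1.83 for Scap, -0.24 to 1.40 for Acat2, -0.50 to 0.86 for Hmgcs1, -0.91 to 1.45 for Pmvk, -0.62 to 1.38 for Cyp51, -0.42 to 0.48 for Nsdhl, -0.24 to 0.89 for Hsd17b7, -0.63 to 0.26 for Sc5d, -0.76 to 0.67 for Fasn, -0.31 to 1.01 for Chka, -1.53 to 0.39 for Pcyt2 and -0.29 to 0.54 for Ptdss1.

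TPM keeps no depth. Genes listed above 0 numbered 12983, 11527 and 18061 in the MBC libraries and 14463 to 16768 in the PC libraries, and with 3 against 4 libraries the 95% intervals of most members span both directions.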
